A study of Mus musculus with 24 samples.

Results

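P-cadherin, encoded by Cdh3, and 6 partner genes of cell adhesion were followed in the retinal pigment epithelium (RPE), the pigmented sheet of cells behind the photoreceptors. The 7 genes were Cdh3, Cdh1, Cdh2, Cadm1, Ctnnb1, Ctnnd1 and Ephb3, out of 54232 gene identifiers in the table, of which 20275 had enough counts to be tested. All 7 passed that filter on low counts. Cdh3 and Cadm1 were chosen because their levels swung widely over time in wild type RPE, so their wild type time courses, their genotype differences at single times and the change of those differences over time are given as descriptions with no test. The other 5 were chosen as partners at cell junctions.

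The series compared mice labelled Per1-/-Per2Brdm1 with wild type (WT) mice and asks what the clock genes Per1 and Per2 do for the daily rhythm of the RPE, which engulfs shed tips of photoreceptor outer segments. "KO" names the libraries with the mutant label throughout. KO and WT RPE were each taken at the circadian times CT19, CT22, CT1 and CT10, with 3 libraries in each of the 8 groups, times set around the daily peak of that uptake. All animals were males of 6 weeks on the mixed strain C57BL/6/J x 129 SvEvBrd, and the labels name no promoter or Cre that would confine the mutations to 1 tissue. RPE was cut from snap-frozen eyes by laser capture. The RNeasy Micro kit gave the RNA and the KAPA mRNA HyperPrep kit the libraries. A pool of 2 eyes gave 5 of the 24 libraries, 4 of them KO and 1 WT, and these carry a joined number such as 3and5. The labels do not say that each library came from a separate animal, so the spread behind each p-value is that of libraries and may be technical.

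RPE cells hold together through adherens junctions, in which the outer parts of classical cadherins bind those of the neighbouring cell. Inside the cell, p120-catenin keeps cadherins at the membrane and beta-catenin links them, through alpha-catenin, to actin. P-cadherin is the main classical cadherin of the RPE, and mutations of human CDH3 cause sparse hair with a macular dystrophy.

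Of the 7 genes, 3 have an entry in the RefSeq promoter table (Ctnnb1, Ctnnd1 and Ephb3). The stretch upstream of Ephb3 is shown because Ephb3 was the gene whose tested genotype difference at a single time passed the threshold. It lies at chr16:21204545-21204754 on the plus strand of GRCm38.p6 and ends 1 base before the first annotated exon base. Capitals mark the 2 matches to CANNTG, the general E-box pattern of basic helix-loop-helix factors.
Ephb3 upstream: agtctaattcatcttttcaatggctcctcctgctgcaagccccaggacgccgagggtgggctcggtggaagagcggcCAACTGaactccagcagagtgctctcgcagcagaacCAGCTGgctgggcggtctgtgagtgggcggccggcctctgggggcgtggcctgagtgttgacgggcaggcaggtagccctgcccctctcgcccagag
The clock motifs were searched on both strands in the 250 bases upstream of each RefSeq start, which hold the whole stretch printed here. The E-box CACGTG had 0 matches in the Ephb3 window and was present in 6.02% of 32851 windows. The related CACGTT had 0 matches and was in 3.85% of windows, and the D-box forms TTATGTAA and TTACGTAA had 0 matches and were in 0.819% and 0.113% of windows. The half-sites TAGGTCA and TGGGTCA of a ROR element had 0 matches and were in 2.23% and 3.24% of windows. CANNTG, which contains CACGTG, was in 66.2% of windows. A match is a description of letters, and its absence says only that these letters are not in this window.

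The libraries held 16245067 to 32066263 counts each, and levels are CPM, counts scaled to a common library size with TMM factors. Per1 and Per2 had medians of 116.1 and 106 CPM over the 12 KO libraries, against 45.2 and 22.6 CPM over the 12 WT libraries, and at CT19, CT22 and CT1 both targeted genes had higher means in libraries labelled KO. At CT10 the order of the means was turned round, with 95.8 and 96.7 CPM in KO RPE, against 130.6 and 136.9 CPM in WT RPE. The libraries of both genes overlapped there, and neither difference passed (edgeR quasi-likelihood test, Benjamini-Hochberg adjusted p 0.477 and 0.396). Counts summed over whole genes cannot show a missing part of a gene, and every direction here rests on the labels as given. The 18 RPE markers summed to 39278 to 74262 CPM, and of these Rpe65 was at 2809 CPM or more in every library, while Best1 was at no more than 1.91 CPM in any. Transcripts of other cells were captured too. The 13 rod markers summed to 15764 to 90207 CPM, and 0 of them were under 1 CPM throughout, while of 10 surface epithelium markers 6 were under 1 CPM in all 24 libraries, 1 of them at 0. KO_CT22 replicate 2 held the highest rod sum. In such mixed material fewer cells of a type and less RNA per cell cannot be told apart.

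**Figure D1:**
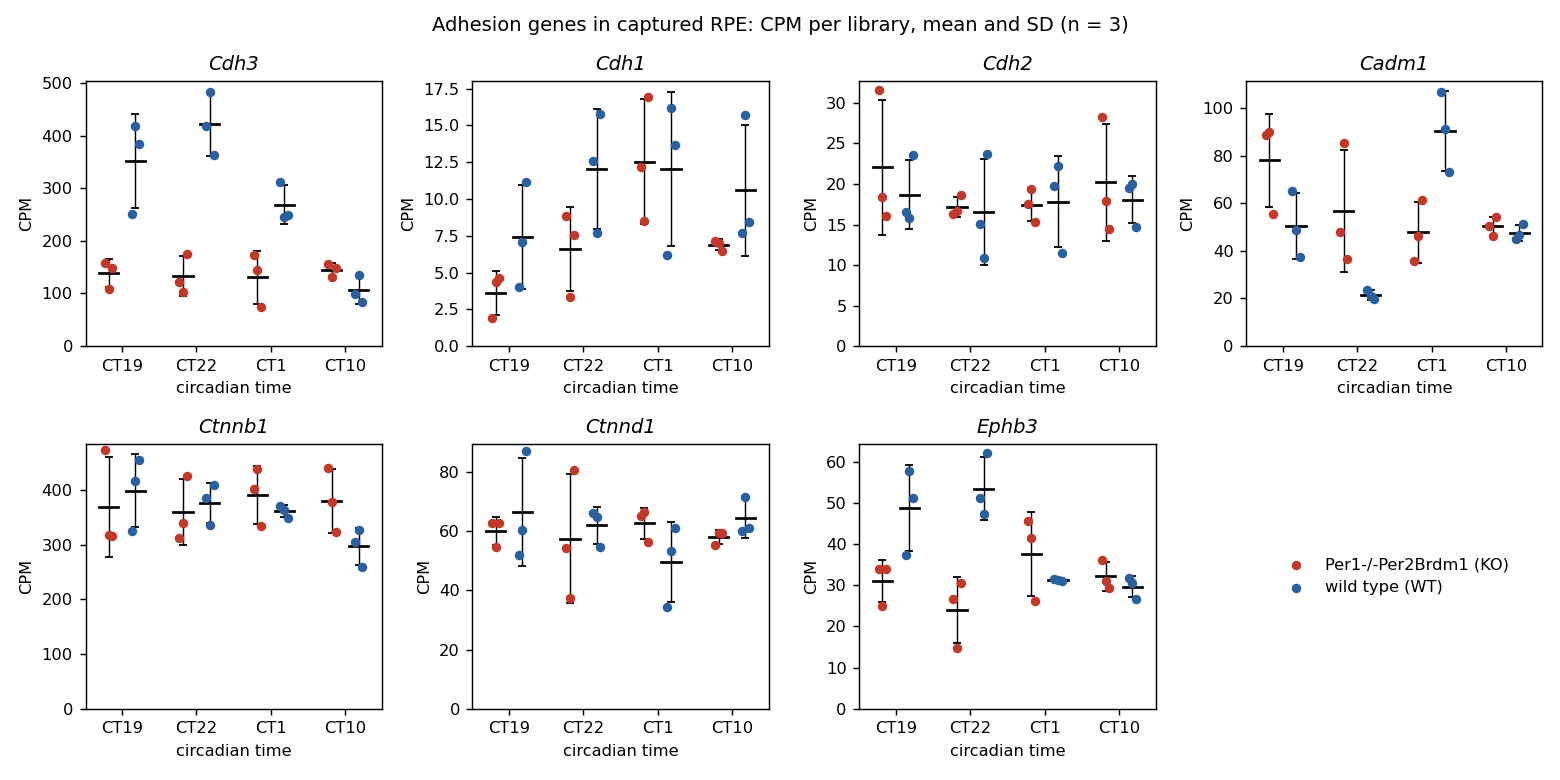
CPM of the 7 adhesion genes (y axis, linear, from 0) at the 4 circadian times (x axis), with 1 point per library in red for KO and blue for WT, and black bars for the mean and SD of 3 libraries. Cdh3 lies between 74.0 and 175 CPM in KO RPE at all 4 times, while WT RPE stands between 246 and 484 CPM at CT19, CT22 and CT1 and between 83.9 and 136 CPM at CT10.

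Cdh3 (ENSMUSG00000061048, GRCm38 chromosome 8, 106510891 to 106557297, plus strand) encodes P-cadherin. Its level varied little over time in KO RPE and was below that in WT RPE at 3 of the 4 times. At CT19 the KO libraries held 159, 108 and 149 CPM, against 251, 419 and 385 CPM in WT libraries. At CT22 they held 122.8, 102 and 175 CPM, against 418, 484 and 364 CPM in WT libraries. At CT1 they held 173, 145 and 74.0 CPM, against 312, 246 and 249 CPM in WT libraries. At each of these times every KO library was below every WT library. This held at all of CT19, CT22 and CT1 for 20 of 20275 genes, or 0.0986%. These are the times at which Cdh3 itself separated, and its WT values chose the gene. The share is therefore a description and not evidence. At CT10 the KO libraries held 155.5, 131.4 and 148 CPM, against 99.5, 136 and 83.9 CPM in WT libraries, and the groups overlapped.

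The fitted log2 differences of Cdh3, KO minus WT, were -1.34 (SE 0.27) at CT19, -1.66 (SE 0.27) at CT22, -1.04 (SE 0.26) at CT1 and 0.44 (SE 0.26) at CT10. On the linear scale, KO means were 0.394, 0.316, 0.486 and 1.36 times WT means at those times. The range of these differences over time, 2.11 on the log2 scale, follows from the WT swing that chose the gene and was not tested. Averaged over the 4 times, which the differences among WT times do not enter, Cdh3 fell by 0.90 in log2 units in KO RPE (SE 0.13; edgeR quasi-likelihood test, Benjamini-Hochberg adjusted p 0.000242). In that average 76 genes passed (0.375%), of which 30 were lower in KO RPE (0.148%). Earlier results of these data had listed Cdh3 at CT19 and CT22, so the average is not independent evidence of its direction. Over the alternatives tried the adjusted p ran from 7.68e-14 to 0.0159, and leaving out each library in turn gave log2 values between -0.96 and -0.85.

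Over the 4 times in KO RPE, whose time course was not what chose the gene, Cdh3 means ran only from 130.6 CPM at CT1 to 145 CPM at CT10, a ratio of 1.11. The groups of all neighbouring times overlapped. The fitted log2 range was 0.15 (edgeR quasi-likelihood test, Benjamini-Hochberg adjusted p 0.9998), and 92.7% of 11567 genes with a mean of at least 5 CPM had a wider range in KO RPE. By this test 0 of 20275 genes passed for time in KO RPE, while 2364 had an unadjusted p under 0.05 and DESeq2 called 284. A test that missed the threshold does not show a level to be constant. The interval of the difference gives its limit. CT22 minus CT10, the extreme times in WT RPE, was -0.12 on the log2 scale in KO RPE (95% interval -0.66 to 0.42), against 1.99 in WT RPE.

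The WT swing itself, a description, had its mean at 422 ± 59.9 CPM at CT22 and at 106 ± 26.7 CPM at CT10 (SD, n = 3), a ratio of 3.96. CT22 and CT19 overlapped, as did CT19 and CT1, and CT10 stood apart below the rest. Of the 11567 genes, 1.02% had a wider log2 range in WT RPE.

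Transcripts of melanocytes, pigment cells of the choroid, were lower with Cdh3 at CT19 and, for 5 of their 6 markers, at CT22, with median log2 differences of -0.69 and -0.37. The 6 markers summed to 329 to 494 CPM in KO libraries and 564 to 777 CPM in WT libraries at CT19, with no overlap. At CT22 the sums were 332 to 620 CPM in KO libraries and 586 to 699.7 CPM in WT libraries. At CT1 they were 545 to 645 CPM in KO libraries and 485 to 580.3 CPM in WT libraries, and at CT10 471 to 512 CPM in KO libraries and 490 to 519 CPM in WT libraries. In the genotype average all 6 markers had a log2 value below 0 (median -0.23). Markers of other cells of the choroid also had medians below 0 in KO RPE at CT19 and CT22. All 11 endothelial markers had log2 values below 0 at both times, with medians of -0.50 and -0.54. The medians were -0.41 and -0.59 for 8 mural cell, -0.19 and -0.61 for 8 fibroblast and -0.40 and -0.58 for 4 Schwann cell markers. At CT19 2 mural and 3 fibroblast markers were above 0, and at CT22 1 Schwann cell marker was. At CT1, where Cdh3 was lower in KO RPE, the medians were 0.31, 0.23, 0.42 and 0.03 for endothelial, mural, fibroblast and Schwann cell markers. Of the 18 RPE markers, 17 were below 0 at CT19 and 14 at CT22 (medians -0.23 and -0.08). At CT1 and CT10 13 of these RPE markers were above 0 (medians 0.17 and 0.32). A melanocyte score, made from the melanocyte markers without Kit, was an alternative added after the data were seen. Kit, the marker left out, was among the genes that ran most like Cdh3 (r = 0.863). With this score as a covariate the Cdh3 average was log2 -0.80 (SE 0.16; edgeR quasi-likelihood test, Benjamini-Hochberg adjusted p 0.0130). With a choroid score, made from endothelial, fibroblast and mural cell markers, the average was log2 -0.88 (SE 0.14). With a rod score it was log2 -0.87 (SE 0.12), and the difference at CT1 was -1.42.

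Cdh1 (ENSMUSG00000000303, chromosome 8, 106603351 to 106670246, plus strand) encodes E-cadherin, the classical cadherin of most surface epithelia. It starts 46053 bases downstream of the end of Cdh3, with 1 protein-coding gene between them, and its KO and WT libraries overlapped at 3 of the 4 times. Its levels were low, with 48 to 567 counts per library. At CT19 the KO libraries held 1.92, 4.35 and 4.64 CPM, against 4.02, 7.08 and 11.1 CPM in WT libraries. At CT1 they held 12.2, 8.50 and 16.9 CPM, against 6.18, 16.2 and 13.7 CPM in WT libraries. At CT22 they held 8.82, 3.36 and 7.57 CPM, against 12.6, 7.67 and 15.8 CPM in WT libraries.

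In KO RPE the Cdh1 libraries of CT1 all stood above those of CT19 and CT10 and overlapped those of CT22. CT19 held the lowest mean, a ratio of 3.45 between the means of CT1 and CT19. The log2 range in KO RPE was 1.78, and 87 of 11567 genes had a wider one (0.752%), but the change over time did not pass (edgeR quasi-likelihood test, Benjamini-Hochberg adjusted p 0.283). DESeq2 gave an adjusted p of 0.0433, and edgeR without the filter on low counts gave an adjusted p of 0.000309. Fibroblast markers moved with it. Their 8 members summed to 149.7 to 202 CPM in KO libraries of CT19 and 290.2 to 511 CPM in those of CT1, and with the choroid score, which holds these markers, the log2 range was 0.89. It was 1.09 with the rod score and 1.08 with the melanocyte score, and none of the 3 passed (edgeR quasi-likelihood test, Benjamini-Hochberg adjusted p 1.0, 0.878 and 1.0). In WT RPE the Cdh1 means ran from 7.41 CPM at CT19 to 12.03 CPM at CT1, with overlapping groups (log2 range 0.70; edgeR quasi-likelihood test, Benjamini-Hochberg adjusted p 0.631). The genotype average of Cdh1 was log2 -0.62 (SE 0.22) and did not pass (edgeR quasi-likelihood test, Benjamini-Hochberg adjusted p 0.416). Without the filter on low counts edgeR gave an adjusted p of 0.0254, and over the alternatives tried it ran up to 0.915. At CT10 all KO libraries, at 6.45 to 7.16 CPM, were below all WT libraries, at 7.66 to 15.7 CPM, an order that 12.4% of genes showed at that time.

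Cdh2 (ENSMUSG00000024304, chromosome 18, 16588877 to 16809246, minus strand) encodes N-cadherin, the classical cadherin of neural tissue. The 12 KO libraries had a lowest level of 14.4, a median of 17.7 and a highest of 31.6 CPM, against 10.9, 18.04 and 23.7 CPM in the 12 WT libraries. KO and WT libraries overlapped at every time. The genotype average was log2 0.11 (SE 0.15), and neither it nor the time course in KO RPE (log2 range 0.36) or WT RPE (log2 range 0.18) passed (edgeR quasi-likelihood test, Benjamini-Hochberg adjusted p 0.946, 0.953 and 0.977). In WT RPE 94.7% of the 11567 genes had a wider range.

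Ctnnb1 (ENSMUSG00000006932, chromosome 9, 120929216 to 120960507, plus strand) encodes beta-catenin, and Ctnnd1 (ENSMUSG00000034101, chromosome 2, 84600071 to 84650765, minus strand) encodes p120-catenin. The levels of both overlapped between the 2 genotypes. Ctnnb1 had a lowest level of 312, a median of 359 and a highest of 473 CPM in KO libraries, against 259, 356 and 455 CPM in WT libraries. Ctnnd1 had 37.3, 59.5 and 80.7 CPM in KO libraries, against 34.5, 60.8 and 86.9 CPM in WT libraries. The genotype averages were log2 0.07 (SE 0.10) for Ctnnb1 and log2 -0.02 (SE 0.11) for Ctnnd1, and neither passed (edgeR quasi-likelihood test, Benjamini-Hochberg adjusted p 0.946 and 0.995). At single times the differences ran from -0.11 to 0.36 for Ctnnb1 and from -0.15 to 0.34 for Ctnnd1, and 0 of these 8 differences passed by edgeR or DESeq2 or had an unadjusted p under 0.05. Only for Ctnnd1 at CT10 did the libraries not overlap, with 55.2, 59.46 and 59.45 CPM in KO RPE against 60.1, 71.7 and 61.1 CPM in WT RPE, an order shown by 12.4% of genes at that time.

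Both catenin genes had narrow ranges over time in KO RPE, each of log2 0.12, and had wider fitted ranges in WT RPE, 0.43 for Ctnnb1 and 0.42 for Ctnnd1. None of these 4 time courses passed (edgeR quasi-likelihood test, Benjamini-Hochberg adjusted p 0.9996 and 0.9998 in KO RPE, 0.462 and 0.547 in WT RPE). For Ctnnb1, 782 exon bases are shared with Ulk4 and Mir7090, and for Ctnnd1 4482 exon bases are shared with Gm28635. The sources used here give no strand setting for the counting, so these 2 counts are uncertain to that extent.

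Cadm1 (ENSMUSG00000032076, chromosome 9, 47530173 to 47857637, plus strand) encodes an immunoglobulin-like adhesion molecule that in the mouse retina also occurs on photoreceptors and their synapses. KO RPE was above WT RPE at CT22 and below it at CT1. At CT22 the KO libraries held 48.1, 85.4 and 36.4 CPM, against 23.7, 20.9 and 19.6 CPM in WT libraries. At CT1 they held 35.6, 46.3 and 61.4 CPM, against 106.5, 91.0 and 73.1 CPM in WT libraries. All KO libraries were above all WT libraries at CT22, as for 8.01% of genes, and below them at CT1, as for 14.6% of genes. At CT19 the KO libraries held 88.8, 89.9 and 55.5 CPM, against 65.15, 48.6 and 37.5 CPM in WT libraries. At CT10 they held 50.5, 46.3 and 54.3 CPM, against 44.9, 46.5 and 51.5 CPM in WT libraries, and the groups overlapped at both of these times.

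The fitted differences of Cadm1, KO minus WT, were log2 0.63, 1.40, -0.92 and 0.08 at CT19, CT22, CT1 and CT10, each with an SE of 0.26 and with no test. Without KO_CT22 replicate 2, the library with the highest rod sum, the CT22 difference was 0.98. The genotype average, log2 0.30 (SE 0.13), did not pass (edgeR quasi-likelihood test, Benjamini-Hochberg adjusted p 0.587). Over time in KO RPE the means ran from 78.1 CPM at CT19 to 47.8 CPM at CT1 with overlapping groups. The log2 range of 0.71 did not pass (edgeR quasi-likelihood test, Benjamini-Hochberg adjusted p 0.397). CT22 minus CT1, the extreme times in WT RPE, was 0.25 on the log2 scale in KO RPE (95% interval -0.28 to 0.77), against -2.08 in WT RPE. The WT means were 90.2 ± 16.7 CPM at CT1 and 21.4 ± 2.08 CPM at CT22 (SD, n = 3), and 102 of 11567 genes had a wider range in WT RPE.

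Rod transcripts moved with Cadm1. The 13 rod markers summed to 42652 to 78582 CPM in KO libraries and 26604 to 60028 CPM in WT libraries at CT19. They summed to 27212 to 90207 CPM in KO libraries and 15764 to 35709 CPM in WT libraries at CT22. At CT1 the order was turned round without overlap, with 23607 to 29054 CPM in KO libraries and 55349 to 78712 CPM in WT libraries. At CT10 the sums were 29447 to 47946 CPM in KO libraries and 24601 to 39763 CPM in WT libraries. The median log2 difference of the 13 markers was 0.44, 1.10, -1.29 and 0.35 at the 4 times, beside medians of -0.01, 0.03, -0.01 and 0.09 over all genes. With a rod score as a covariate the Cadm1 difference was 0.73 at CT22 and -0.25 at CT1, and the log2 range in WT RPE was 1.27.

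**Figure D2:**
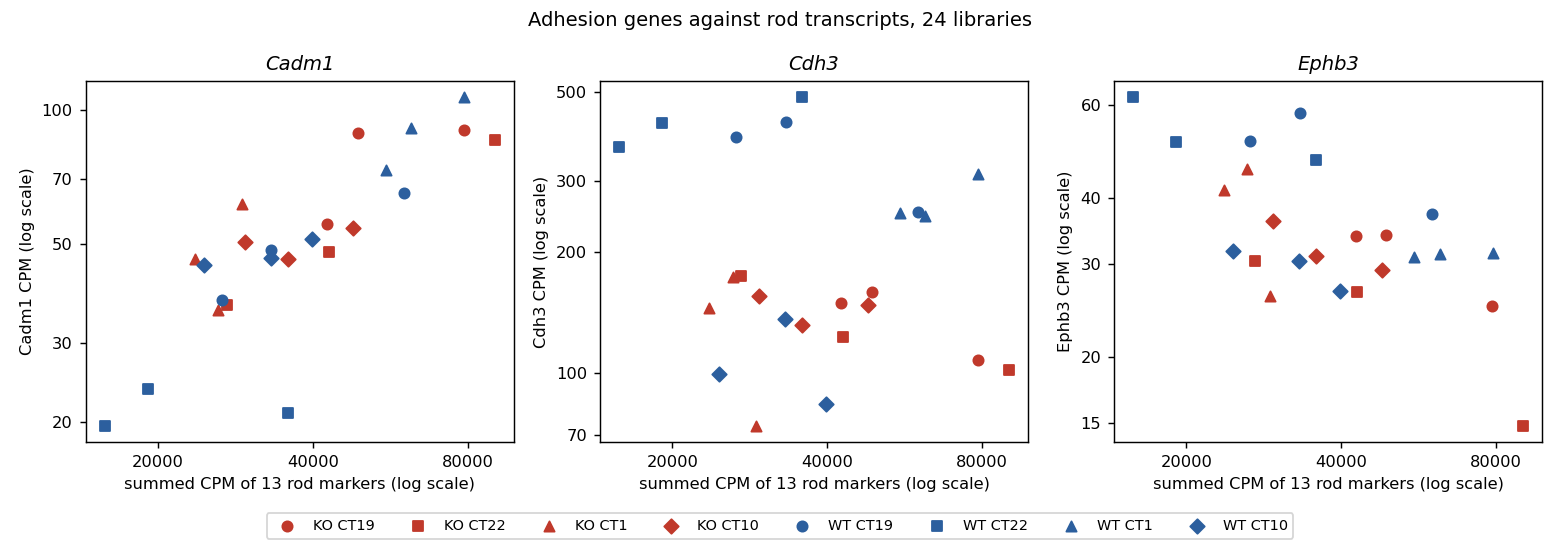
CPM of Cadm1, Cdh3 and Ephb3 (y axes, log scale) against the summed CPM of 13 rod markers (x axes, log scale), with 1 point per library, red for KO and blue for WT, and a marker shape for each time. Cadm1 climbs with the rod sum in both genotypes. Cdh3 separates KO from WT libraries of CT19, CT22 and CT1 at any rod sum, and Ephb3 is lowest, at 14.9 CPM, in the library with the highest rod sum, 90207 CPM.

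Ephb3 (ENSMUSG00000005958, chromosome 16, 21204755 to 21223305, plus strand) encodes a receptor tyrosine kinase for ephrin-B ligands, through which touching cells signal to each other. It was lower in KO RPE at CT22 by the test across all genes. At CT22 the KO libraries held 26.6, 14.9 and 30.4 CPM, against 51.1, 47.2 and 62.0 CPM in WT libraries. At CT19 they held 34.0, 25.0 and 34.0 CPM, against 37.4, 57.8 and 51.2 CPM in WT libraries. Every KO library was below every WT library at both times, as for 4.79% of genes at CT22 and 5.31% at CT19. At CT1 the KO libraries held 45.5, 41.4 and 26.1 CPM, against 31.5, 31.3 and 31.0 CPM in WT libraries. At CT10 they held 36.2, 31.1 and 29.3 CPM, against 31.8, 30.4 and 26.7 CPM in WT libraries, and the groups overlapped at both of these times.

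The difference at CT22 was -1.16 in log2 units (SE 0.23; edgeR quasi-likelihood test, Benjamini-Hochberg adjusted p 0.0232), where 46 genes passed (0.227%), 10 of them lower in KO RPE (0.0493%). Ephb3 had been listed at CT22 in earlier results of these data, so this is not independent evidence. The call ended in 3 of the 24 fits that left out 1 library. In these fits, in the order below, 12, 26 and 13 of all genes passed, against 46. Without KO_CT22 replicate 2 the difference was -0.90 with an adjusted p of 0.266, without WT_CT22 replicate 1 it was -1.19 with 0.0614, and without WT_CT22 replicate 6 it was -1.04 with 0.144 (edgeR quasi-likelihood test, Benjamini-Hochberg adjustment). Markers of the choroid were lower at CT22 too, with log2 values below 0 for all 11 endothelial, 8 fibroblast and 8 mural cell markers (medians -0.54, -0.61 and -0.59), while all 13 rod markers were above 0. With a rod score as covariate the Ephb3 difference was -0.67 with an adjusted p of 0.448, with the choroid score it was -0.94 with 0.167, with the melanocyte score it was -0.96 with 0.284, and without the 5 pooled libraries it was -1.26 with an adjusted p of 0.0747 by the same test. Over the 9 alternatives tried, by edgeR or DESeq2, the adjusted p ran from 2.76e-05 to 0.464, the highest with the replicate block. At CT19, CT1 and CT10 the differences were -0.65, 0.27 and 0.12, and 0 of the 3 passed by edgeR or DESeq2, of which CT19 had an unadjusted p under 0.05.

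The change of the Ephb3 genotype difference over the 4 times, a log2 range of 1.43, passed (edgeR quasi-likelihood test, Benjamini-Hochberg adjusted p 0.0297), as it did for 937 genes (4.62%). The difference at CT22, where Ephb3 had been listed earlier, enters this range, so the test is not independent evidence. With the rod score it was 0.93 with an adjusted p of 0.185, and over the alternatives tried the adjusted p ran from 0.000153 to 0.275. Leaving out 7 of the 24 libraries, 1 at a time, ended this call, with adjusted p of at most 0.0860. Within genotypes the time course of Ephb3 did not pass, with a log2 range of 0.65 in KO RPE and 0.85 in WT RPE (edgeR quasi-likelihood test, Benjamini-Hochberg adjusted p 0.470 and 0.0654). The WT time course passed by DESeq2 (adjusted p 0.0120) and by edgeR without the filter (0.00161), with the rod, choroid and melanocyte scores (0.0412, 0.0224 and 0.0382), and in 4 fits that left out 1 library. These libraries were KO_CT22 replicate 2 (0.0193), KO_CT22 replicate 3 (0.0472), WT_CT19 replicate 1 (0.0470) and WT_CT22 replicate 3 (0.0498). In WT RPE, where 192 genes passed (0.947%), CT22 and CT19 stood above CT1 and CT10. In KO RPE CT1 minus CT22 was widest, with means of 37.7 CPM and 24.0 CPM and overlapping libraries. The genotype average was log2 -0.36 (SE 0.11; edgeR quasi-likelihood test, Benjamini-Hochberg adjusted p 0.310).

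**Figure D3:**
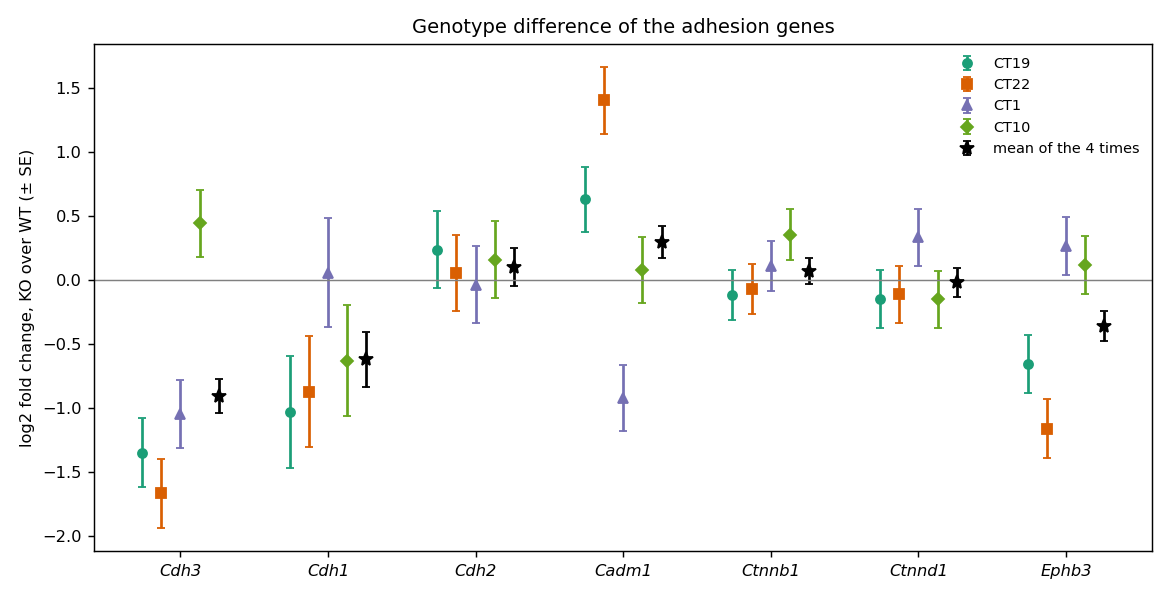
Log2 fold change of KO over WT (y axis, points with SE bars from the fit to all 24 libraries) for each adhesion gene (x axis) at CT19, CT22, CT1 and CT10 and for the mean of the 4 times (black star). Cdh3 lies between -1.66 and -1.04 at 3 times and at 0.44 at CT10, Cadm1 has opposite signs at CT22 and CT1, and both catenin genes lie between -0.15 and 0.36.

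**Figure D4:**
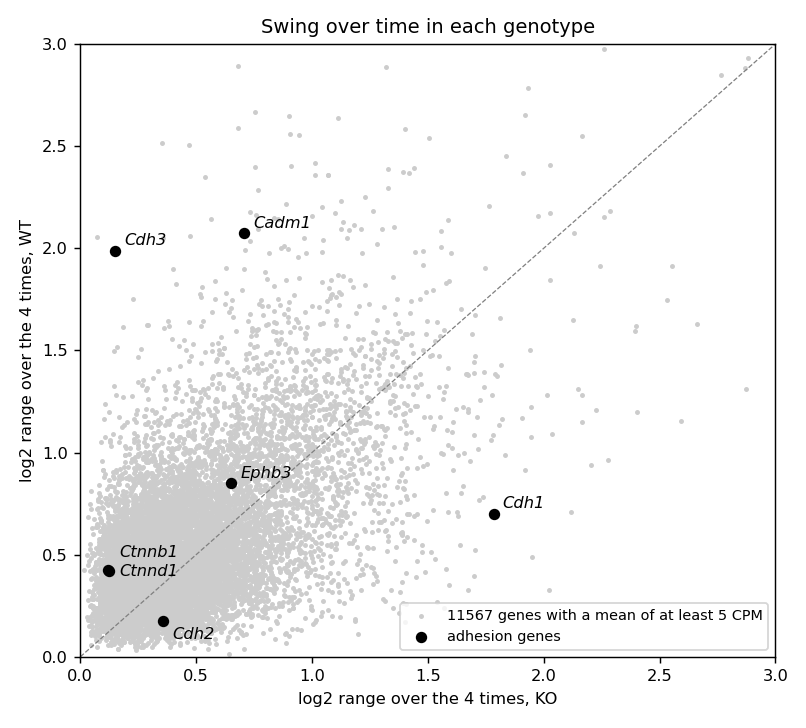
Log2 range over the 4 times in WT RPE (y axis) against that in KO RPE (x axis) for 11567 genes with a mean of at least 5 CPM (grey, of which 43 lie beyond the axes) and the 7 adhesion genes (black). Cdh3 and Cadm1, chosen for their place on the y axis, have ranges of 0.15 and 0.71 in KO RPE, and Cdh1 is the 1 adhesion gene with a far wider range in KO RPE, 1.78, than in WT RPE, 0.70.

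Per length of exon, Ctnnb1 and Cdh3 were the 2 highest of the 7 genes. Levels in CPM per kb of all exon bases of a gene averaged 72.1 ± 11.2 for Ctnnb1 in KO RPE and 68.95 ± 10.3 in WT RPE (SD, n = 12 each). Cdh3 averaged 31.2 ± 6.91 in KO RPE and 65.5 ± 30.2 in WT RPE on this scale, so it stood closer to Ctnnb1 in WT libraries. Ctnnd1 followed with 8.13 ± 1.38 in KO RPE and 8.27 ± 1.71 in WT RPE. Cadm1 averaged 5.58 ± 1.86 in KO RPE and 5.02 ± 2.62 in WT RPE, and Ephb3 4.70 ± 1.21 in KO RPE and 6.14 ± 1.85 in WT RPE. Those 2 did not differ beyond their spread. Cdh2 and Cdh1 were lowest and overlapped, at 2.38 ± 0.652 and 1.62 ± 0.888 in KO RPE and 2.20 ± 0.541 and 2.30 ± 0.922 in WT RPE. Among the 3 classical cadherins the Cdh3 level per kb was thus the highest in every library, with a lowest value of 16.9 in KO RPE and 19.1 in WT RPE. The highest values of Cdh1 were 3.70 in KO RPE and 3.54 in WT RPE, and those of Cdh2 were 3.92 in KO RPE and 2.94 in WT RPE. The length used decides the place of some genes. Per kb of the longest transcript Cadm1 averaged 12.2 in KO RPE and 10.99 in WT RPE, above Ctnnd1 with 9.36 in KO RPE and 9.51 in WT RPE.

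**Figure D5:**
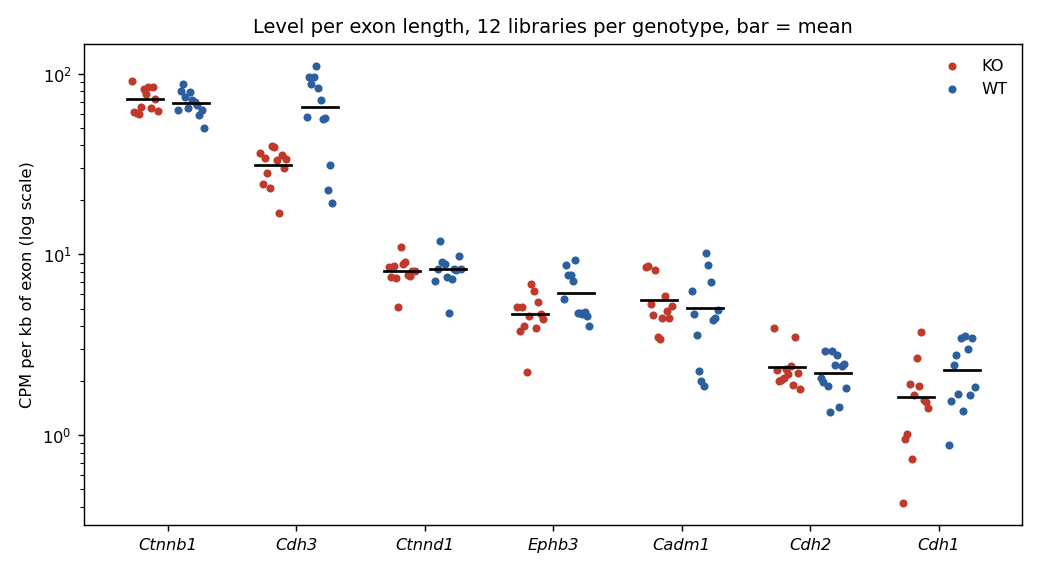
CPM per kb of exon (y axis, log scale) of the 7 adhesion genes (x axis), with 1 point per library, red for KO and blue for WT, and a black bar for the mean of 12 libraries. Ctnnb1 and Cdh3 stand above the other 5 genes, and the WT points of Cdh3 spread from 19.1 to 110.3.

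In the wider adhesion machinery 0 to 6 list genes passed per comparison by edgeR. In 7 lists of other cadherins, catenins and actin linkers, nectins and immunoglobulin adhesion genes, tight junction and polarity genes, Eph receptors and ephrins, integrins, and cadherin turnover with beta-catenin signalling, all but 7 of 141 genes had enough counts to be tested. In the genotype average 2 of the tested list genes passed, both lower in KO RPE, beside 0.375% of all genes, and the median was log2 -0.03 beside 0.02 over all genes. Cdh19, a cadherin of Schwann cells and other neural crest cells, fell by 1.52 on the log2 scale (SE 0.30) from a low level, with means of 2.64 to 5.25 CPM over the KO groups and 5.83 to 12.5 CPM over the WT groups. It lies on the chromosome that carries Per2, and the 4 Schwann cell markers had a median of log2 -0.55. Dkk3, a secreted modulator of WNT signals, fell by 0.53 on the log2 scale (SE 0.11). The adjusted p were 0.0114 for Cdh19 and 0.0197 for Dkk3 (edgeR quasi-likelihood test, Benjamini-Hochberg adjustment). Without the 5 pooled libraries 0 list genes passed by edgeR, and DESeq2 on all libraries called 4, beside 176 of all genes.

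At CT19 Dkk3 was the 1 list gene that passed, beside 0.0691% of all genes, of which 5 were lower in KO RPE (0.0247%). Its level was 79.4 ± 3.27 CPM in KO RPE and 191 ± 52.0 CPM in WT RPE, a log2 difference of -1.26 (SE 0.22; edgeR quasi-likelihood test, Benjamini-Hochberg adjusted p 0.0170). The call ended without KO_CT19 replicate 2, 3and5 or 4 or WT_CT19 replicate 1 or 4. At CT22 and CT10 0 list genes passed by edgeR, beside 0.227% and 0.0345% of all genes, 25 had an unadjusted p under 0.05 at each time, and DESeq2 called 5 at each. The list medians were log2 -0.21 at CT22 and 0.05 at CT10. At CT1 2 list genes passed, beside 0.533% of all genes with 0.222% higher in KO RPE, and both rose in KO RPE. Itga7, a laminin receptor subunit, was at 48.8 ± 7.95 CPM in KO RPE and 24.2 ± 3.92 CPM in WT RPE. Plekha7, which ties p120-catenin to microtubules, was at 175 ± 10.3 CPM in KO RPE and 99.1 ± 16.6 CPM in WT RPE. Their log2 differences were 1.01 (SE 0.21) and 0.82 (SE 0.18), with adjusted p of 0.0252 and 0.0327 (edgeR quasi-likelihood test, Benjamini-Hochberg adjustment). A rod score as a covariate left 0 list genes passing at CT1 by edgeR, beside 13 of all genes. Without KO_CT22 replicate 2, 7 list genes passed at CT1, beside 892 of all genes.

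Over time in KO RPE 0 list genes passed by edgeR, 16 had an unadjusted p under 0.05 and DESeq2 called 3. Over time in WT RPE 5 passed, beside 0.947% of all genes, and the median log2 range was 0.70 beside 0.72 over all genes. They were Crb1, for a polarity protein of photoreceptors and Mueller glia (log2 range 2.01), Cadm2, a relative of Cadm1 (1.75), the neural adhesion gene Ncam1 (1.31), Itga7 (1.05) and Plekha7 (0.80). The genotype difference changed over time for 6 list genes, beside 4.62% of all genes. These were the same 5 and Cgn, for the tight junction protein cingulin. Without KO_CT22 replicate 2, 9 list genes passed over time in WT RPE, beside 809 of all genes, and 6 in the interaction. A rod score as a covariate left 0 list genes passing in either test by edgeR, and in the interaction it left 27 of all genes against 937. Leaving out WT_CT1 replicate 2 or WT_CT1 replicate 3and6 also left 0 list genes in both tests and in the difference at CT1. In the interaction 10 and 30 of all genes passed in these fits. Leaving out WT_CT10 replicate 2 left 0 over time in WT RPE, and leaving out KO_CT1 replicate 4and6 or 5 left 0 in the difference at CT1. Crb1, Cadm2 and Ncam1 were lowest in WT RPE at CT22 and highest at CT1, the times of the lowest and highest rod sums, while Itga7 and Plekha7 were lowest at CT1 and highest at CT10.

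Genes whose log2 levels ran most like those of the members over all 24 libraries were listed by Pearson's r, as a description with no p, since the points share groups and the mix of captured cells. For Cdh3 these were Sipa1l3 (r = 0.952), the immediate early gene Ier5 (0.899), the clock output repressor Nfil3 (0.896), Cnst (0.890), the hexokinase-domain gene Hkdc1 (0.886), Klhdc8a (0.871), Rasl11a (0.871) and the melanocyte marker Kit (0.863). Since Cdh3 was chosen for its WT swing, a swing in WT RPE among genes that ran with it follows from the choice. Sipa1l3, at a mean of 189 CPM, had a range of 0.15 in KO RPE and 0.88 in WT RPE. For Cadm1 they included Cacna1f (0.943), Crb1 (0.931), Rdh12 (0.926), Rbp3 (0.917), Elovl4 (0.917), Slc17a7 (0.913) and Prph2 (0.912), all of them genes of photoreceptors.

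For Ephb3 the nearest were Gdf11 (0.916), the potassium channel gene Kcna2 (0.904) and C77080 (0.889). For Cdh1 they were Crip2 (0.891), Lgi4 (0.871) and the collagen gene Col6a1 (0.864), and for Cdh2 Nr2c2 (0.785), Acsl4 (0.768) and Dip2c (0.762). Ctnnb1 ran with Itprid2 (0.922), Etfdh (0.906) and Nedd4 (0.903), and Ctnnd1 with Nfib (0.911), Vangl1 (0.815) and Klf13 (0.812). Over the 8 group means in place of the 24 libraries, 3 of the 8 genes for Cdh3 and 4 of the 8 for Cadm1 were again among the nearest, 1 of 3 for Ctnnb1, and 0 of 3 for each of the other 4.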

How the data were processed

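The deposited table holds the authors' raw counts of reads per gene, unnormalized whole numbers, for 24 libraries. The submitters' processing notes name HISAT2 2.1.0, HTSeq 0.11, Trimmomatic 0.32 and Cufflinks, and the build GRCm38.p6. What each tool did, the gene models and the strand setting are not given in the sources used here. Of 54232 identifiers 54079 were matched to a symbol in GENCODE M21, and 0 columns were left without a sample.

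Tests were run with edgeR 4.0.16 (R 4.3.3). The filter filterByExpr, at a minimum count of 10, kept 20275 genes. Library sizes were scaled with TMM, and CPM were computed from them. One quasi-likelihood model held the 8 group means, with 16 residual degrees of freedom shared by all groups. Adjusted p are Benjamini-Hochberg values over all genes tested, and genes passed under 0.05. Tests over several times are summarised by the log2 range, that is the difference between the highest and the lowest fitted value. The model was also run on simulated counts. These were drawn for each library on its own, without differences in captured cells, so the run does not cover such differences. Counts of any pair of libraries in a group differed by far more than sampling noise, so each library was counted once.

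The members and lists were chosen with earlier results of these data known. All 7 members are named, with up to 6 list genes per comparison that passed at a mean of at least 5 CPM. Pearson's r of log2(CPM + 1) named the 8 genes nearest to Cdh3 and to Cadm1 and the 3 nearest to each other member, at the same minimum, and 1 of those for Cadm1 is not reported here. Alternatives were RLE scaling, no filter, a mean of at least 5 CPM, a replicate block, leaving out pools or single libraries, rod, choroid and melanocyte scores as covariates (each a mean log2(CPM + 1) of markers), DESeq2 1.42.0, exon lengths of the longest transcript, and likeness over group means. The melanocyte score, which left out Kit, and single contrasts within KO were added after the data were seen.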

Additional observations from a re-analysis of the deposited data

Results flagged for a closer look

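For 7 adhesion genes the KO minus WT difference changed over the 4 times by edgeR's quasi-likelihood test of the interaction (Benjamini-Hochberg adjusted p). Of all tested genes 4.62% passed. The lists of 141 adhesion genes, all but 7 of them tested, gave 6 of these genes. That is about the share of all genes, so the number of list genes that passed does not stand out. Cdh3 and Cadm1 were left out because the wild type swing that chose them enters this test. Values are the log2 range of the difference over the 4 times. Among the members it was Ephb3, at 1.43 (edgeR quasi-likelihood test, adjusted p 0.0297), with differences of -0.65, -1.16, 0.27 and 0.12 at CT19, CT22, CT1 and CT10. Ephb3 had been listed at CT22 in earlier results of these data, so this is not independent evidence. Its call ended in 7 of the 24 fits that left out 1 library.

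The polarity gene Crb1 had a range of 2.50 (adjusted p 0.0358), from differences of 0.59, 1.25, -1.26 and 0.002 at the same times. Cadm2, a relative of Cadm1, had a range of 2.27 (adjusted p 0.0257) and the neural adhesion gene Ncam1 one of 1.34 (adjusted p 0.0416). Their differences were 0.28, 1.19, -1.08 and 0.07 for Cadm2 and 0.29, 0.71, -0.63 and -0.49 for Ncam1 at the 4 times. The rod list had medians of 0.44, 1.10, -1.29 and 0.35, so these 3 genes had its signs at CT19, CT22 and CT1, and at CT10 Ncam1 had the opposite sign.

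The laminin receptor gene Itga7 had a range of 1.70 (adjusted p 0.0145), the p120-catenin partner gene Plekha7 one of 1.37 (adjusted p 0.0157), and the tight junction gene Cgn one of 1.48 (adjusted p 0.0343). Their differences at the 4 times were 0.18, -0.68, 1.01 and -0.61 for Itga7, 0.42, -0.38, 0.82 and -0.55 for Plekha7, and 0.19, -0.46, 0.74 and -0.75 for Cgn. These had the sign of the rod list at CT19 and the opposite sign at CT22, CT1 and CT10. All adjusted p here are Benjamini-Hochberg values from that edgeR test. A rod score as covariate left 0 of these 7 genes passing by edgeR, and 27 of all genes against 937 without it. DESeq2 without this score called Ephb3 and 16 list genes, beside 2501 of all genes.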

How the results depend on the processing

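The Cdh3 genotype average kept its sign and passed under each of the 9 alternatives and in all 24 fits that left out 1 library. These fits reuse the libraries in which Cdh3 had been listed at CT19 and CT22, so they are not independent evidence. The other genes tested were not called in the genotype average, apart from Cdh1 at log2 -0.62 without the filter on low counts. Signs that turned belonged to differences that did not pass, some of them not near 0, such as Ctnnd1 (0.34) and Ephb3 (0.27) at CT1, and where a value changed the cause was not tested. Numbers of list genes are those passing by edgeR unless DESeq2 is named.

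For 30 pairs of same-numbered libraries of different groups, deviations from group means had correlations of -0.32 to 0.58, with a median of -0.0014 and 11 above 0.1. For 222 pairs with different numbers these ran from -0.655 to 0.546, with a median of -0.012 and 75 above 0.1. The labels do not say whether equal numbers share a litter, day or batch. This check cannot decide it, since the mix of captured cells also enters the correlations. With the replicate block Cdh3 averaged log2 -0.94 (edgeR, adjusted p 0.0159). Ephb3 was at -1.15 at CT22 (edgeR, adjusted p 0.464) with an interaction range of 1.40 (adjusted p 0.275), and neither passed. The Cadm1 range in WT RPE was 1.46. Ctnnb1 at CT22 was 0.0248 and Cdh2 at CT1 0.21, signs opposite to those without the block. The block left 0 list genes in the genotype average, at CT19 and CT1, over time in WT RPE and in the interaction, and it left 36, 2, 4, 3, 15 and 3 of all genes in the average, at CT19, CT22 and CT1, over time in WT RPE and in the interaction.

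With RLE scaling and with DESeq2, Cdh2 at CT1 was 0.0007. With a mean of at least 5 CPM it was 0.0471 there and -0.0204 at CT22, Ephb3 at CT10 was -0.0320, and 10 list genes passed in the interaction. Without the filter Cdh1 over time in KO RPE (1.80) and Ephb3 over time in WT RPE (0.83) passed, and list genes numbered 4 in the average, 3, 10, 11 and 4 at CT19, CT22, CT1 and CT10, 9 over time in KO RPE, 19 in WT RPE and 24 in the interaction. All genes then numbered 378 in the average, 808, 1556 and 999 at CT22, CT1 and CT10, 1253 over time in KO RPE, 2159 in WT RPE and 2686 in the interaction, and at CT19 8.36 times the 14 with the filter. With DESeq2 Cdh1 over time in KO RPE (1.83) and Ephb3 over time in WT RPE (0.80) passed, and list genes numbered 4 in the average, 5, 11 and 5 at CT22, CT1 and CT10, 3 over time in KO RPE, 14 in WT RPE and 16 in the interaction. DESeq2 called 176 genes in the average, 37, 313, 1107 and 769 at CT19, CT22, CT1 and CT10, 284 over time in KO RPE, 1441 in WT RPE and 2501 in the interaction.

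Without the 5 pooled libraries Ephb3 was at -1.26 at CT22 with an interaction range of 1.47, and neither passed. Ctnnb1 at CT22 was 0.0129 and Cdh2 at CT1 0.0775. List genes numbered 0 in the average, at CT19 and CT1 and over time in WT RPE.

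With the rod score Cadm1 was at 0.73 at CT22 and -0.25 at CT1, with a range of 1.27 in WT RPE and 0.98 in the interaction. Cdh3 at CT1 was -1.42. Ephb3 no longer passed at CT22 (-0.67) or in the interaction (0.93), passed over time in WT RPE (0.84), and was -0.37 at CT1. The Cdh1 range in KO RPE was 1.09. Ctnnb1 was 0.0305, 0.23 and -0.23 at CT19, CT22 and CT1, Ctnnd1 0.0644, 0.23 and -0.13 at those times and 0.0302 on average, and Cdh1 at CT1 -0.71. List genes numbered 0 at CT1, over time in WT RPE and in the interaction, while all genes numbered 13 at CT1 and 27 in the interaction. With the choroid score Cadm1 was 1.06 at CT22 with an interaction range of 1.80, and Ephb3 was -0.94 at CT22 and 1.11 in the interaction, not passing, and 0.77 over time in WT RPE, passing. Ctnnb1 was 0.0257 and 0.13 and Ctnnd1 0.0558 and 0.10 at CT19 and CT22, Ctnnd1 averaged 0.0722, and Cdh1 at CT1 was -0.23. List genes numbered 9 over time in WT RPE and 2 in the interaction. With the melanocyte score, added after the data were seen, Cadm1 was 0.0243 at CT19 and 0.96 at CT22 with an interaction range of 1.81. Ephb3 was -0.96 at CT22 and 1.20 in the interaction, not passing, and 0.78 over time in WT RPE, passing. Ctnnb1 was 0.17 and 0.10 and Ctnnd1 0.45 and 0.19 at CT19 and CT22, and Ctnnd1 averaged 0.22. List genes numbered 1 in the average, 0 at CT19, 5 at CT1 and 8 over time in WT RPE.

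Leaving out each library in turn, Ephb3 ran from -1.37 to -0.90 at CT22, from 1.17 to 1.64 in the interaction and from 0.73 to 0.93 over time in WT RPE, where it passed without KO_CT22 replicate 2. Cadm1 ran from 0.98 to 1.64 at CT22 and from 1.90 to 2.56 in the interaction. Cdh2 ran from -0.11 to 0.44, -0.17 to 0.41, -0.27 to 0.16 and -0.16 to 0.36 at CT19, CT22, CT1 and CT10, and Cdh1 at CT1 from -0.25 to 0.33. Ctnnd1 ran from -0.30 to 0.10 at CT19, -0.43 to 0.13 at CT22 and -0.0979 to 0.0443 on average, and Ctnnb1 at CT22 from -0.21 to 0.0265. List genes ran from 1 to 3 in the average, 0 to 1 at CT19, 0 to 3 at CT22, 0 to 7 at CT1, 0 to 9 over time in WT RPE (7 and 9 of these without KO_CT22 replicate 2) and 0 to 11 in the interaction.

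Depth limits Cdh1 most, with as few as 48 counts in a library, and 3 libraries a group limit every single-time difference.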
